A study of Mus musculus with 12 samples.

Results

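Planar cell polarity (PCP) signalling, the branch of the Wnt pathway that does not act through beta-catenin, was examined through 44 genes. They are the transcripts whose identifiers map, in the GENCODE annotation of the mouse genome build GRCm38, to a fixed list of gene symbols. The 44 genes were found among 22467 transcripts in the table, and all 44 were among the 12576 transcripts kept for testing. By role, 15 encode core polarity proteins, 10 encode ligands and receptors, 11 encode GTPases and effectors, and 8 encode other regulators.

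PCP signalling orients cells within the plane of a tissue. Core transmembrane and cytoplasmic proteins sort to opposite sides of each cell, Wnt ligands and their receptors bias that sorting, and small GTPases with their effectors pass the signal to actin, myosin and the JNK kinases. In the vertebrate embryo the pathway is known for convergent extension of the body axis, neural tube closure, and the orientation of cilia and hair cells.

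The measurements came from whole mouse embryos of embryonic day 8.5 (E8.5), of which 3 were wild-type (Rpl10a +/+) and 3 were Rpl10a LOF/LOF. Each embryo was lysed singly and gave 1 library of ribosome-protected fragments (RPF) and 1 RNA-seq library of rRNA-depleted total RNA, 12 libraries in all. RPFs are the stretches of mRNA that ribosomes cover, so their number on a coding sequence (CDS) follows the number of ribosomes there. The question was which mRNAs are translated differently when Rpl10a, which encodes the large-subunit ribosomal protein RPL10A/uL1, carries a loss-of-function allele. By the study's methods that allele was made by Cas9 editing on a C57BL/6 background and adds residues to the N-terminus of RPL10A. It acts in every cell of the embryo, and the sex of the embryos was not determined by the study.

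RPF libraries held 7041357 to 10863499 counts and RNA libraries 9132521 to 26561843. Levels are given as CPM, counts scaled to library totals after TMM normalization, and RPF/RNA is the ratio of an embryo's RPF level to its RNA level. The summed levels of marker and Y-linked genes are CPM of the library total without TMM normalization. Rpl10a itself lay at 940 to 1125 CPM in the Rpl10a LOF/LOF RPF libraries and at 1562 to 1679 CPM in the wild-type RPF libraries. Rpl10a RNA was lower too, at 695 to 753 CPM against 789 to 870 CPM (log2 fold change -0.23, FDR = 0.0678 by edgeR). All 13 marker genes of embryonic tissues (tail bud, somites, neural tube, heart and midline) were detected. Their summed RPF level was 561 to 625 CPM in wild-type and 653 to 767 CPM in Rpl10a LOF/LOF embryos, without overlap, with 1 marker lower and 1 higher at FDR < 0.1 in RPF and 2 higher in RNA. Whole embryos mix many cell types, so fewer cells of a type and less RNA per cell cannot be told apart in any value below.

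Markers of other cell types differed between genotypes as well. The summed RPF level of 12 visceral endoderm and yolk sac markers was 6409 to 8453 CPM in wild-type and 2280 to 4836 CPM in Rpl10a LOF/LOF embryos, with 9 of the 11 tested markers lower at FDR < 0.1 in RPF and 11 of 11 in RNA, and with Apoc2 at 0 in every RPF library. The 7 primitive erythroid markers summed to 837 to 2818 CPM in wild-type and 3460 to 5814 CPM in Rpl10a LOF/LOF RPF libraries, with 3 of 7 higher. The 4 trophoblast markers summed to at most 41.6 CPM, and Tpbpa and Gcm1 were at 0 in some RPF libraries. The RPF levels of 4 genes of the Y chromosome (Uty, Kdm5d, Ddx3y, Eif2s3y) summed to 154 to 183 CPM in Rpl10a LOF/LOF replicate 2 as in the 3 wild-type embryos, but to 9.09 CPM in Rpl10a LOF/LOF replicate 1 and 0.384 CPM in replicate 3. The part of these differences in the values of the PCP genes was not tested, except that the Y-linked level was used as a covariate.

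Of the 44 genes, Vangl2 and Fzd3 fell in RPF at FDR < 0.1 (quasi-likelihood test of edgeR, adjusted by Benjamini-Hochberg over all transcripts tested), and no member rose. Neither call was kept with the Y-linked covariate or in 4 of the 6 fits without 1 embryo. The calls are 2 of 44, against 2.19% of all 12576 transcripts called in either direction. Another 8 members were lower and 2 were higher with an unadjusted p below 0.05. The 10 lower members compare with 6.61% of all transcripts lower at that threshold, and the 2 higher ones with 7.12%. The lower members numbered 5 with DESeq2 (4.38% of all transcripts), 5 with the Y-linked covariate (4.21%), 5 after correction of every library for 5'UTR GC content (6.39%), and 4 to 14 with 1 embryo left out (5.12% and 11.8% in those fits). With limma-voom and sva, 7 members were called at FDR < 0.1, Gpc4 and Wnt5a among them as higher, and 10.4% of all transcripts.

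The RPF log2 fold change (Rpl10a LOF/LOF over wild type) was below 0 for 28 of 44 members, with a median of -0.08, against 49.1% of all transcripts and a median of 0.0036. In each embryo the median over members of the log2 difference from the wild-type mean was taken. In RPF it was 0.0067, 0.0044 and 0.0061 in wild-type embryos, which set the reference. In Rpl10a LOF/LOF replicates 1 to 3 it was -0.15, -0.01 and -0.12. In RNA it was -0.0274, 0.0609 and -0.0208 in wild-type and 0.0119, 0.0116 and -0.0064 in Rpl10a LOF/LOF embryos. In 12 members every Rpl10a LOF/LOF embryo lay below every wild-type embryo in RPF, as did 9.45% of all transcripts. In 1 member, Gpc4, every Rpl10a LOF/LOF embryo lay above, as did 9.92% of all transcripts.

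In RNA, no member was called at FDR < 0.1, where 5.02% of all transcripts were. At an unadjusted p below 0.05, 2 members (Celsr3 and Sfrp2) were lower in RNA and 4 (Scrib, Ror1, Ror2 and Gpc4) were higher, against 9.60% and 7.44% of all transcripts. The median RNA log2 fold change of the members was 0.002, with 21 of 44 below 0. In 2 members, Cdc42 and Mapk9, every Rpl10a LOF/LOF embryo lay below every wild-type embryo in RNA, as in 1588 of all 12576 transcripts. In 2 members, Ror1 and Gpc4, every Rpl10a LOF/LOF embryo lay above, as did 10.2% of all transcripts.

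The change in RPF/RNA, here called translation efficiency (TE), was tested in edgeR as a genotype by library interaction. No member and no other transcript passed FDR < 0.1, a share of 0% of all transcripts. DESeq2, limma-voom and limma-voom with sva called no member either, where they called 0.0318%, 0% and 0% of all transcripts. At an unadjusted p below 0.05, 6 members (Vangl2, Fzd3, Dvl3, Fzd2, Mapk9 and Intu) were lower in TE, where 1.96% of all transcripts were, and Cdc42 was higher, where 2.48% were. The lower members numbered 4 with DESeq2 (1.66% of all transcripts), 0 with the Y-linked covariate (1.25%), and 1 to 9 with 1 embryo left out (0.825% and 5.89% in those fits).

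The TE log2 fold change was below 0 for 32 of 44 members (48.0% of all transcripts), with a median of -0.09 (0.0066 over all transcripts). The members' median log2 difference in RPF/RNA from the wild-type mean was 0.02, -0.08 and 0.04 in wild-type replicates 1 to 3. In Rpl10a LOF/LOF replicates 1 to 3 it was -0.16, -0.07 and -0.13, so the genotypes overlapped. RPF/RNA was lower in every Rpl10a LOF/LOF embryo than in every wild-type embryo for 10 members, against 5.22% of all transcripts. With each embryo entered as a block that joins its RPF and RNA libraries, 34 members were below 0 with a median of -0.10, and 6 were lower at an unadjusted p below 0.05, against 3.02% of all transcripts. No member was called at FDR < 0.1 with that block, and the lowest member FDR was 0.472.

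**Figure D1:**
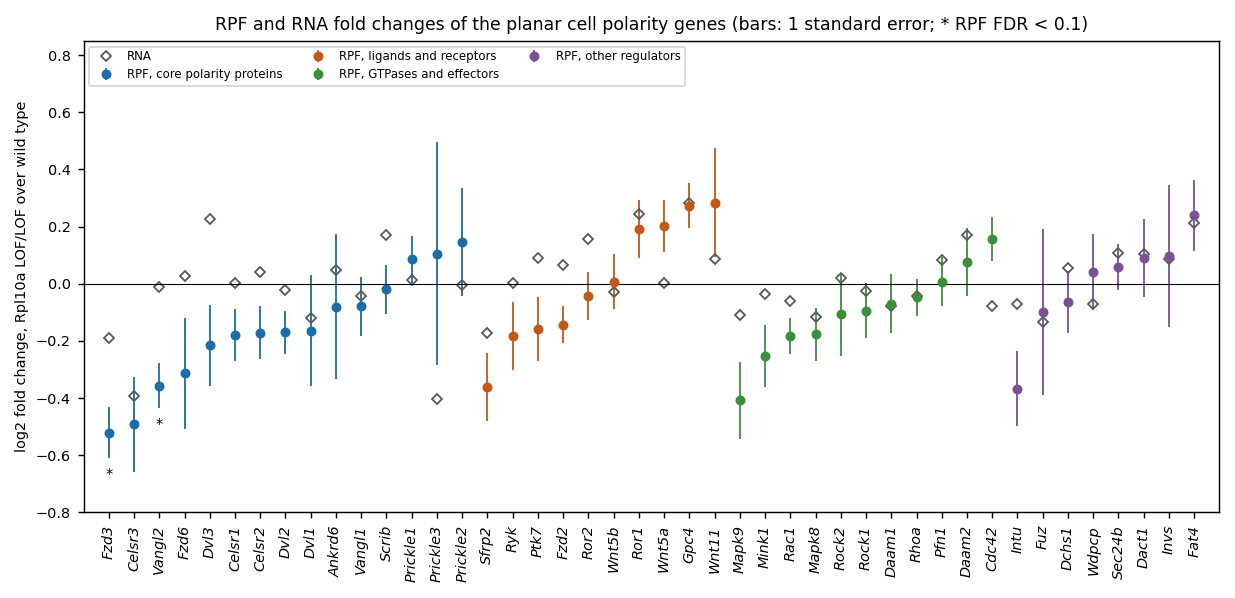
Fitted log2 fold change (vertical axis, Rpl10a LOF/LOF over wild type) of each of the 44 genes, sorted within role. Filled circles are RPF with 1 standard error, open diamonds are RNA, and an asterisk marks an RPF FDR below 0.1. Core polarity proteins lie mostly below 0 in RPF (12 of 15), with RNA near 0 for most, and Fzd3 and Vangl2 carry the asterisks.

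The core polarity proteins had a median log2 fold change of -0.17 in RPF, 0.00 in RNA to 2 decimals, and -0.15 in TE, and 12 of 15 were below 0 in RPF and 12 of 15 in TE. With 1 embryo left out the TE median ran from -0.23 to -0.12 and the RNA median from -0.07 to 0.05. Both called genes, Vangl2 and Fzd3, belong here. Since the members were listed with earlier results of these libraries known, these medians and counts describe the list and carry no test.

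Vangl2 encodes a 4-pass transmembrane protein that, with Prickle, marks the side of the cell opposite to Frizzled. In GRCm38 its counted transcript spans bases 172000960 to 172028444 of chromosome 1, minus strand, in 9 exons. The Vangl2 RPF level was 55.3, 57.6 and 55.5 CPM in wild-type replicates 1 to 3 and 44, 45.5 and 42 CPM in Rpl10a LOF/LOF replicates 1 to 3. The genotypes did not overlap, and the spread within each was narrow beside the gap, with means of 56.1 ± 1.28 CPM and 43.9 ± 1.74 CPM (SD, n = 3). The RPF log2 fold change was -0.36 (standard error 0.08, FDR = 0.0679 by edgeR), and -0.29 with the Y-linked covariate (FDR = 0.474 by edgeR).

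Vangl2 RNA was 112, 126 and 107 CPM in wild-type and 118, 109 and 115 CPM in Rpl10a LOF/LOF embryos, so the genotypes overlapped (log2 fold change -0.01, standard error 0.07). Its RPF/RNA was 0.494, 0.456 and 0.52 in wild-type and 0.372, 0.416 and 0.365 in Rpl10a LOF/LOF embryos, again without overlap. The TE log2 fold change of Vangl2 was -0.35 (standard error 0.10), and its unadjusted p of 0.00354 was lost on adjustment over all transcripts.

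Vangl1, the paralog that acts beside Vangl2, showed no such separation. Its RPF level was 29.5, 29.5 and 27.3 CPM in wild-type and 26.1, 30.1 and 25.5 CPM in Rpl10a LOF/LOF embryos, where replicate 2 was the highest of all 6 (log2 fold change -0.08, standard error 0.10). To set the paralogs against each other, the log2 ratio of Vangl2 to Vangl1 RPF level was taken within each library. It was 0.91, 0.97 and 1.02 in wild-type and 0.75, 0.59 and 0.72 in Rpl10a LOF/LOF embryos, a difference of -0.27 without overlap (exact permutation over embryos, two-sided p = 0.1, which is the lowest value possible with 3 against 3, adjusted p = 0.275 over 11 pairs of members).

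Fzd3 encodes a Frizzled receptor that serves PCP in the neural tube, in axon guidance and in the inner ear. Its counted transcript spans bases 65192449 to 65262463 of chromosome 14, minus strand, in 7 exons. The Fzd3 RPF level was 42.3, 44.5 and 46.4 CPM in wild-type and 33.4, 29.4 and 30.1 CPM in Rpl10a LOF/LOF embryos. All 3 Rpl10a LOF/LOF embryos lay well under the lowest wild-type embryo, and the RPF log2 fold change was -0.52 (standard error 0.09, FDR = 0.0357 by edgeR). With the Y-linked covariate it was -0.57 (FDR = 0.144 by edgeR).

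Fzd3 RNA was 456, 484 and 416 CPM in wild-type and 449, 386 and 353 CPM in Rpl10a LOF/LOF embryos. Rpl10a LOF/LOF replicate 1 lay inside the wild-type range and the other 2 below it, and the RNA log2 fold change was -0.19 (standard error 0.09, FDR = 0.303 by edgeR). It was -0.11 to -0.29 with 1 embryo left out, and without Rpl10a LOF/LOF replicate 1 Fzd3 was called in RNA (FDR = 0.0887 by edgeR). RPF/RNA of Fzd3 was 0.0929, 0.092 and 0.112 in wild-type and 0.0743, 0.0763 and 0.0855 in Rpl10a LOF/LOF embryos without overlap, and the TE log2 fold change was -0.33 (standard error 0.13).

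Fzd6, the other PCP Frizzled among the core proteins, was sparsely covered, with 32 to 76 RPF counts per library. Its RPF level was 6.95, 5.62 and 7.61 CPM in wild-type and 4.66, 6.63 and 4.95 CPM in Rpl10a LOF/LOF embryos, which overlap (log2 fold change -0.31, standard error 0.19). The within-library log2 ratio of Fzd3 to Fzd6 overlapped too, with a difference of -0.20 (two-sided exact permutation p = 0.6).

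Dishevelled proteins relay the Frizzled signal in the cytoplasm. Dvl2, the most abundant of the 3 per length of CDS, had 109, 104 and 102 CPM of RPF in wild-type and 99.4, 86.3 and 93.8 CPM in Rpl10a LOF/LOF embryos, without overlap (log2 fold change -0.17, standard error 0.07, unadjusted p = 0.0431, FDR = 0.342 by edgeR). Dvl2 RNA was 61.5, 70 and 62.2 CPM in wild-type and 63, 65.3 and 62.9 CPM in Rpl10a LOF/LOF embryos, all 3 of the latter inside the wild-type range.

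Dvl3 had a TE log2 fold change of -0.44 (standard error 0.20, unadjusted p = 0.0426), which was -0.27 with the Y-linked covariate. Its RPF level was 26.5, 28.4 and 27.5 CPM in wild-type and 18.2, 28.6 and 23.7 CPM in Rpl10a LOF/LOF embryos, so replicate 2 exceeded every wild-type embryo. Dvl3 RNA was 25.2, 31.3 and 22.5 CPM in wild-type and 29.1, 32.5 and 31.3 CPM in Rpl10a LOF/LOF embryos. The RPF/RNA of 1.05, 0.91 and 1.22 against 0.626, 0.88 and 0.757 did not overlap, with 2 of the 3 Rpl10a LOF/LOF embryos far below and replicate 2 just below the wild-type range. Dvl1, at 35 to 66 RPF counts per library, overlapped between genotypes in RPF, RNA and RPF/RNA.

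The Celsr genes encode atypical cadherins that hold the polarity complexes of neighbouring cells together. Celsr3 had 7.04, 8.31 and 6.78 CPM of RPF in wild-type and 5.54, 5.47 and 4.76 CPM in Rpl10a LOF/LOF embryos, without overlap (log2 fold change -0.49, standard error 0.17, FDR = 0.218 by edgeR). Its RNA was 18.5, 21.4 and 14.5 CPM in wild-type and 13, 14.6 and 14 CPM in Rpl10a LOF/LOF embryos (log2 fold change -0.39, standard error 0.14, FDR = 0.181 by edgeR), and its TE log2 fold change was -0.10 (standard error 0.22). The Celsr3 RNA value was -0.22 without wild-type replicate 2 and -0.55 without wild-type replicate 3, where it was called (FDR = 0.0424 by edgeR).

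Celsr1, mutated in the mouse line Crash, had 57.5, 56.5 and 48.2 CPM of RPF in wild-type and 49.6, 46.1 and 47.8 CPM in Rpl10a LOF/LOF embryos, which overlap through wild-type replicate 3. Its RNA log2 fold change was 0.00 to 2 decimals (standard error 0.08), and RPF/RNA, at 0.285, 0.248 and 0.263 against 0.237, 0.239 and 0.224, did not overlap. Celsr2 did not overlap in RPF (30.8 to 34.5 CPM against 27.9 to 30.7 CPM) and overlapped in RPF/RNA.

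Prickle1, a cytoplasmic partner of Vangl2, had 57.9, 60.2 and 57.6 CPM of RPF in wild-type and 61.1, 67.5 and 57.9 CPM in Rpl10a LOF/LOF embryos (log2 fold change 0.09, standard error 0.08). Prickle2 and Prickle3 were also above 0 in RPF, at 0.15 (standard error 0.19) and 0.10 (standard error 0.39), but Prickle3 rested on 6 to 20 counts per RPF library. Ankrd6, the vertebrate relative of Diego, was at -0.08 (standard error 0.25).

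Scrib, a scaffold of the basolateral domain that binds Vangl2, had almost equal RPF means in both genotypes. The Scrib RPF level was 83.3, 80.2 and 85.4 CPM in wild-type and 73.2, 81.9 and 89.9 CPM in Rpl10a LOF/LOF embryos (log2 fold change -0.02, standard error 0.09). Its RNA level was 128, 136 and 133 CPM in wild-type and 151, 136 and 162 CPM in Rpl10a LOF/LOF embryos, where replicate 2 lay at the top of the wild-type range (log2 fold change 0.17, standard error 0.06, FDR = 0.199 by edgeR). The TE log2 fold change of Scrib was -0.19 (standard error 0.11). With the Y-linked covariate these were 0.03 in RNA and -0.09 in TE.

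**Figure D2:**
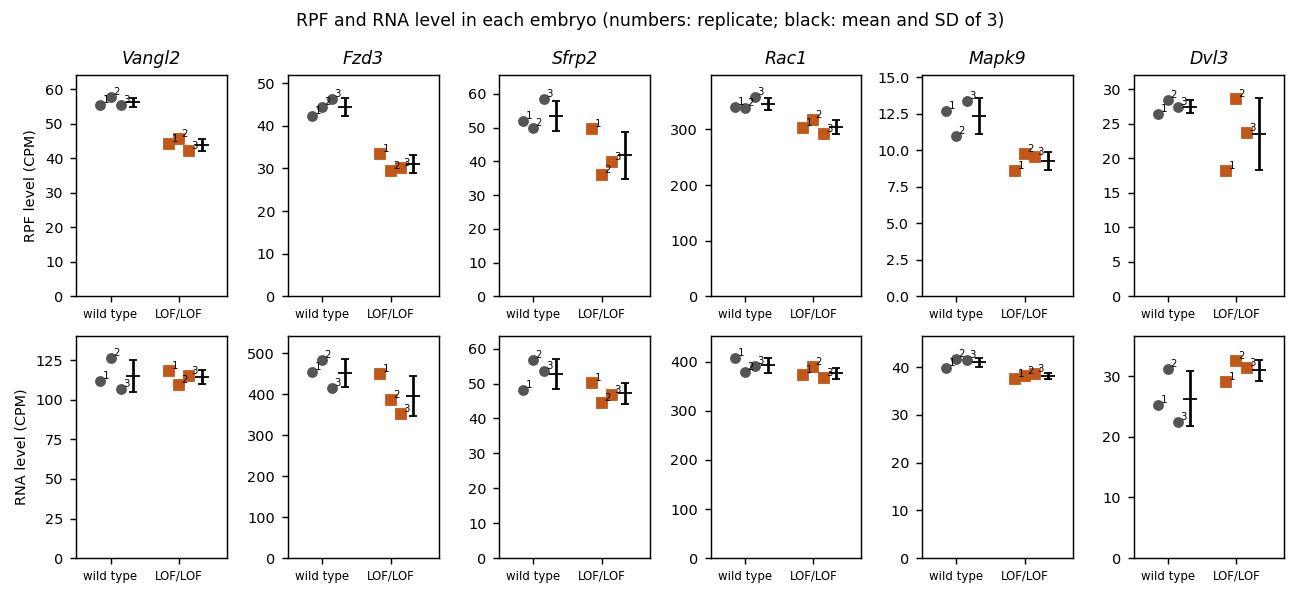
RPF level (upper row) and RNA level (lower row), in CPM from 0, of 6 genes in each embryo; circles are wild-type and squares Rpl10a LOF/LOF embryos, numbers give the replicate, and the black marks are the mean and SD of 3. Vangl2, Fzd3, Sfrp2, Rac1 and Mapk9 do not overlap between genotypes in RPF, while in Dvl3 the second Rpl10a LOF/LOF embryo reaches 28.6 CPM, above the highest wild-type embryo at 28.4 CPM.

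The start codons of the called genes, of a paralog of each and of Dvl3 and Dvl2 are shown so that their initiation sites can be read side by side. Each line gives 12 bases before the start codon and 6 from its first base on, 5′ to 3′, from the GENCODE transcript of GRCm38. Capitals mark the base at position -3, the ATG, and the base at position +4, counting the A of the ATG as +1.
Vangl2: cgttcggacGccATGGac
Vangl1: cttgccattGctATGGat
Fzd3: gatccaggaAgaATGGct
Fzd6: gagtctggcAagATGGaa
Dvl3: gaggccggaGccATGGgc
Dvl2: gcgagcgagAccATGGcg
All 6 have A or G at -3 and G at +4. Of the 40 members with at least 12 bases of 5'UTR, 36 had A or G at -3 and 17 had G at +4, or 42.5% for the latter, against 87.1% and 52.8% of all transcripts tested. The start contexts of Vangl2 and Fzd3 had the same class of base at both positions as those of Vangl1 and Fzd6.

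Vangl2 and Fzd3 did share a feature of the 5'UTR, and its part in their values was not tested. Each has 10 ATG triplets in its annotated 5'UTR, which is 1320 nt long in Vangl2 and 463 nt in Fzd3. No other member has as many, Wnt5a and Fzd6 come next at 7 and 5, and 18 of 42 members have none. Transcripts with 10 or more upstream ATGs made up 1.36% of those tested with a 5'UTR (168 transcripts). Over these 168, the median TE log2 fold change was 0.04 and 1.79% were called in RPF, which is 3 transcripts, Vangl2 and Fzd3 among them. Without these members, 1 of 166 was called. The share called in RPF was 2.36% with no upstream ATG, 1.95% with 1 to 4, 1.49% with 5 to 9, and 2.19% over all transcripts.

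Among the ligands and receptors, the median log2 fold change was -0.02 in RPF, 0.08 in RNA and -0.12 in TE. RPF was below 0 for 5 of 10 and TE for 7 of 10, and none was called at FDR < 0.1. The TE median was -0.02 with the Y-linked covariate and -0.18 to -0.05 with 1 embryo left out.

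Wnt5a, the main PCP ligand of the tail bud and limb, had 54.5, 58.4 and 51.8 CPM of RPF in wild-type and 56.3, 65 and 67.6 CPM in Rpl10a LOF/LOF embryos, where replicate 1 stayed inside the wild-type range (log2 fold change 0.20, standard error 0.09, unadjusted p = 0.0486, FDR = 0.36 by edgeR). Wnt5a RNA was 100, 111 and 107 CPM against 103, 112 and 105 CPM (log2 fold change 0.00 to 2 decimals, standard error 0.05). Wnt11, a ligand of gastrulation movements, had 6.86, 5.85 and 6.57 CPM of RPF in wild-type and 5.68, 8.15 and 9.32 CPM in Rpl10a LOF/LOF embryos, with replicate 1 the lowest and the other 2 the highest of all 6 (log2 fold change 0.28, standard error 0.19). Wnt5b was level, at 0.01 (standard error 0.10).

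Sfrp2, a secreted Frizzled-related protein that binds Wnt ligands and is needed with Sfrp1 for axis elongation, had 52.1, 49.9 and 58.6 CPM of RPF in wild-type and 49.6, 36.1 and 39.9 CPM in Rpl10a LOF/LOF embryos. The genotypes did not overlap, but Rpl10a LOF/LOF replicate 1 was almost at the level of the lowest wild-type embryo (log2 fold change -0.36, standard error 0.12, FDR = 0.201 by edgeR). Sfrp2 RNA was 48.2, 56.7 and 53.5 CPM in wild-type and 50.2, 44.5 and 46.7 CPM in Rpl10a LOF/LOF embryos (log2 fold change -0.17, standard error 0.08, FDR = 0.28 by edgeR).

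Ror2 and Ror1 are receptor tyrosine kinases for Wnt5a. Ror2 had 102, 101 and 93.5 CPM of RPF in wild-type and 86.6, 105 and 95.8 CPM in Rpl10a LOF/LOF embryos, with RNA of 99.3, 105 and 89.3 CPM against 111, 111 and 104 CPM. Ror2 RPF therefore overlapped while RPF/RNA, at 0.964 to 1.05 against 0.777 to 0.953, did not. For Ror1 the log2 fold changes were 0.19 in RPF (standard error 0.10) and 0.24 in RNA (standard error 0.09), and every Rpl10a LOF/LOF embryo lay above every wild-type embryo in RNA. The log2 ratio of Ror2 to Ror1 RPF level differed by -0.24 without overlap (two-sided exact permutation p = 0.1, adjusted p = 0.275).

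Ptk7 and Ryk are transmembrane proteins of the kinase family that lack kinase activity and act as PCP co-receptors. Ptk7 had 392, 423 and 416 CPM of RPF in wild-type and 299, 438 and 366 CPM in Rpl10a LOF/LOF embryos, where replicate 1 was the lowest and replicate 2 the highest of all 6 (log2 fold change -0.16, standard error 0.11). The RPF log2 fold change of Ptk7 was -0.03 without Rpl10a LOF/LOF replicate 1 and -0.30 without replicate 2, and that of TE was -0.08 and -0.44. Its RPF/RNA followed the same order, at 0.648, 1.06 and 0.827 against 0.975 to 1.02 in wild type. Ryk RPF/RNA did not overlap, at 0.136 to 0.145 in wild-type and 0.112 to 0.13 in Rpl10a LOF/LOF embryos, with an RNA log2 fold change of 0.00 to 2 decimals (standard error 0.05).

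Fzd2, a Frizzled used by both Wnt branches, had 128, 134 and 127 CPM of RPF in wild-type and 114, 120 and 118 CPM in Rpl10a LOF/LOF embryos (log2 fold change -0.14, standard error 0.06, FDR = 0.36 by edgeR). Its RPF/RNA was 0.81, 0.81 and 0.802 in wild-type and 0.635, 0.748 and 0.718 in Rpl10a LOF/LOF embryos (TE log2 fold change -0.21, standard error 0.08). Neither RPF nor RPF/RNA overlapped for Fzd2, although 5.99% of its coding 28-mers also occur in Fzd1 or Fzd7 transcripts.

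Gpc4, a glypican that binds Wnt ligands at the cell surface, was the one member higher in RPF in every Rpl10a LOF/LOF embryo. Its RPF level was 60.5, 59.7 and 60.5 CPM in wild-type and 66.3, 74.4 and 77.3 CPM in Rpl10a LOF/LOF embryos (log2 fold change 0.27, standard error 0.08, FDR = 0.156 by edgeR). Gpc4 RNA was higher too, at 20.5, 21.6 and 15.8 CPM against 24.8, 23.4 and 21.9 CPM (log2 fold change 0.28, standard error 0.12), and the TE log2 fold change was -0.01. Gpc4 lies on the X chromosome, and its RPF level in Rpl10a LOF/LOF replicate 2, the embryo with wild-type levels of Y-linked RNA, was between those of the other 2.

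The GTPases and effectors had median log2 fold changes of -0.09 in RPF, -0.04 in RNA and -0.08 in TE. RPF was below 0 for 8 of 11 and TE for 9 of 11, and none was called. Their RPF median was -0.19 without Rpl10a LOF/LOF replicate 2, and their RNA median was 0.0047 with the Y-linked covariate. Rac1, Rhoa and Cdc42 are the small GTPases that PCP uses to remodel actin. Rac1 had 341, 338 and 359 CPM of RPF in wild-type and 303, 318 and 293 CPM in Rpl10a LOF/LOF embryos, without overlap (log2 fold change -0.18, standard error 0.06, FDR = 0.223 by edgeR). Its RNA was 409, 378 and 392 CPM against 373, 390 and 367 CPM (log2 fold change -0.06, standard error 0.05), and RPF/RNA was 0.833 to 0.916 against 0.798 to 0.816.

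The Cdc42 RPF level was 521, 507 and 488 CPM in wild-type and 611, 502 and 574 CPM in Rpl10a LOF/LOF embryos, overlapping through replicate 2 (log2 fold change 0.15, standard error 0.08). Cdc42 RNA was 499, 492 and 535 CPM in wild-type and 476, 488 and 483 CPM in Rpl10a LOF/LOF embryos, without overlap, and the TE log2 fold change was 0.23 (standard error 0.09, unadjusted p = 0.0274). With the Y-linked covariate these log2 fold changes were 0.0076 in RPF and 0.07 in TE. With 1 embryo left out they ran from 0.09 to 0.23 in RPF and from 0.16 to 0.32 in TE. The within-library log2 ratio of Rac1 to Cdc42 RPF level was -0.61, -0.58 and -0.44 in wild-type and -1.01, -0.66 and -0.97 in Rpl10a LOF/LOF embryos. The difference of -0.33 was the largest in size among the 11 pairs compared (two-sided exact permutation p = 0.1, adjusted p = 0.275), and 4 of the 11 pairs reached that smallest p.

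Rhoa was level, with 392, 378 and 373 CPM of RPF in wild-type and 395, 356 and 355 CPM in Rpl10a LOF/LOF embryos (log2 fold change -0.05, standard error 0.07). Values of these GTPases are uncertain where copies share their sequence. Of the coding 28-mers of Rhoa 69.2% occur in transcripts of other genes in the annotation, as do 45.0% of those of Cdc42, 7.07% of Rac1, 7.97% of Rock1 and 2.78% of Pfn1. How such reads were assigned is not given in the sources used here. For Vangl2 and Fzd3 no coding 28-mer was shared.

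The JNK kinases carry the signal to transcription. Mapk9 (JNK2) had 12.7, 11 and 13.3 CPM of RPF in wild-type and 8.6, 9.77 and 9.51 CPM in Rpl10a LOF/LOF embryos (log2 fold change -0.41, standard error 0.14, FDR = 0.208 by edgeR). Its RNA, at 39.8, 41.6 and 41.5 CPM against 37.5, 38.2 and 38.6 CPM, and its RPF/RNA, at 0.264 to 0.321 against 0.229 to 0.256, did not overlap either. Mapk8 (JNK1) had 36.1, 39.8 and 38.2 CPM of RPF against 35.1, 34.7 and 31.2 CPM, also without overlap (log2 fold change -0.18, standard error 0.09), but with overlapping RPF/RNA.

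Mink1, a kinase upstream of JNK that phosphorylates Prickle, had 24.9, 23.3 and 23.5 CPM of RPF in wild-type and 19.1, 22.2 and 18.8 CPM in Rpl10a LOF/LOF embryos (log2 fold change -0.25, standard error 0.11, FDR = 0.332 by edgeR). Daam1, a formin that binds Dishevelled, had 44, 43 and 44.1 CPM against 38.9, 37.4 and 48.1 CPM, with Rpl10a LOF/LOF replicate 3 the highest of all 6. Rock1, a kinase that acts on myosin, had 75.1, 66.7 and 69.3 CPM against 58.7, 74.7 and 64.3 CPM, and overlapped. Rock2, Daam2 and the actin-binding profilin Pfn1 overlapped as well, with RPF log2 fold changes of -0.11, 0.07 and 0.01 and standard errors of 0.15, 0.12 and 0.09.

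The other regulators had median log2 fold changes of 0.05 in RPF, 0.07 in RNA and 0.00 in TE to 2 decimals. Intu, Fuz and Wdpcp are PCP effectors that act in building cilia. The Intu RPF level was 11.9, 10.9 and 12 CPM in wild-type and 8.89, 9.66 and 8.46 CPM in Rpl10a LOF/LOF embryos (log2 fold change -0.37, standard error 0.13, FDR = 0.243 by edgeR). Intu RNA was 33.7, 31.6 and 31 CPM against 32.4, 30.7 and 28 CPM, and RPF/RNA, at 0.345 to 0.387 against 0.275 to 0.315, did not overlap.

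Fat4 and Dchs1 are the giant cadherins of the second polarity system. The Fat4 log2 fold changes were 0.24 in RPF (standard error 0.12) and 0.21 in RNA (standard error 0.10), with TE at 0.02, and those of Dchs1 were -0.06 in RPF (standard error 0.11) and -0.12 in TE (standard error 0.16). Sec24b, which exports Vangl2 from the endoplasmic reticulum, was at 0.06 in RPF (standard error 0.08) and overlapped. Dact1, Invs, Wdpcp and Fuz lay between -0.10 and 0.10 in RPF, inside their standard errors of 0.13 to 0.29.

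**Figure D3:**
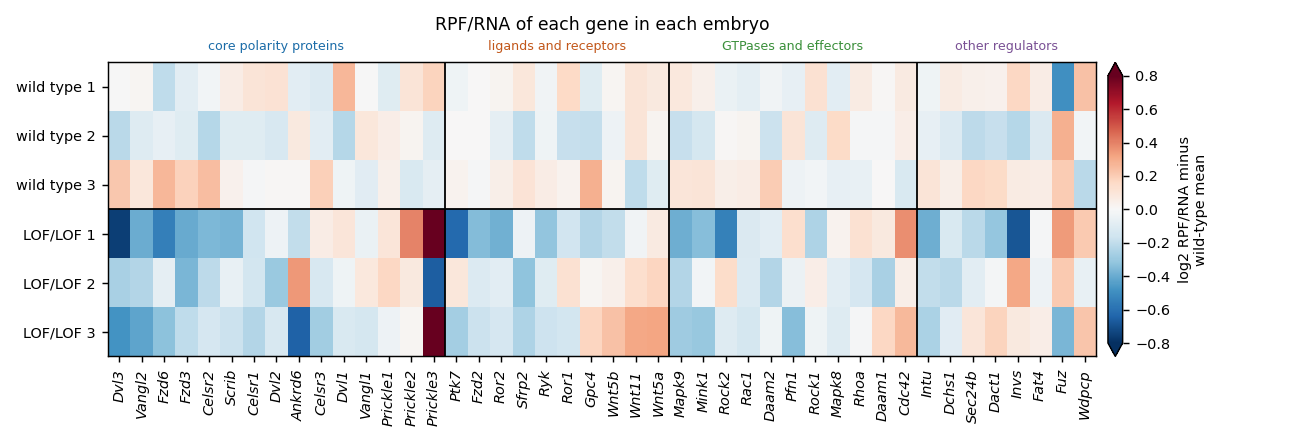
RPF/RNA of each gene (columns, grouped by role and sorted by TE log2 fold change) in each of the 6 embryos (rows), as log2 difference from the wild-type mean; blue is lower and red is higher, and colours end at ±0.8. The columns of Dvl3, Vangl2 and Fzd3 are blue in all 3 Rpl10a LOF/LOF embryos, whereas Ptk7 is blue in replicates 1 and 3 but not in replicate 2.

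The 3 Rpl10a LOF/LOF embryos did not contribute evenly. In RPF, 28 of 44 members in replicate 1 lay below the lowest wild-type embryo, 17 in replicate 2 and 23 in replicate 3, against 35.6%, 32.1% and 33.2% of all transcripts. Above the highest wild-type embryo lay 9, 13 and 15 members, against 35.5%, 31.2% and 34.2% of all transcripts. The median difference of the 44 members from their wild-type mean log2 RPF level was -0.15 in replicate 1, -0.01 in replicate 2 and -0.12 in replicate 3. The core polarity proteins had medians of -0.17, -0.23 and -0.17, and the GTPases and effectors -0.17, -0.10 and -0.13. The ligands and receptors, at -0.15, 0.09 and 0.05, and the other regulators, at -0.08, 0.03 and 0.18, were less even.

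The calls depended on single embryos and on the Y-linked covariate. Without wild-type replicate 1, 2 or 3 or Rpl10a LOF/LOF replicate 3, no member passed FDR < 0.1 in RPF, and the whole table kept 12, 4, 130 and 40 calls. Without Rpl10a LOF/LOF replicate 1, 4 members passed (Vangl2, Fzd3, Sfrp2 and Gpc4) and 1.52% of all transcripts. Without Rpl10a LOF/LOF replicate 2, 9 members passed (Vangl2, Fzd3, Dvl3, Rac1, Mink1, Ptk7, Cdc42, Fat4 and Gpc4) and 11.6% of all transcripts. In that last fit all wild-type embryos had high and all Rpl10a LOF/LOF embryos low Y-linked levels, so sex and genotype cannot be told apart in it.

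Sizes varied by gene. Over the 6 fits without 1 embryo, the RPF log2 fold change stayed between -0.38 and -0.33 for Vangl2 and between -0.58 and -0.49 for Fzd3. With the Y-linked level as a covariate no member passed, and 33 transcripts did in the whole table. Rpl10a LOF/LOF replicate 2, whose Y-linked level matched that of the wild-type embryos, had 45.5 CPM of Vangl2 and 29.4 CPM of Fzd3 in RPF, below all 3 wild-type embryos for both genes. In the same embryo Dvl3, Ptk7 and Ror2 were not below the wild-type range in RPF, and with the Y-linked covariate their RPF log2 fold changes were 0.01, 0.05 and 0.07. These levels rest on 1 embryo, and sex largely went with genotype, so the part of sex in any of these genes was not tested. With that covariate the RPF log2 fold change was -0.04 for Fzd6 and -0.11 for Mink1, and the TE log2 fold change was -0.23 for Vangl2 and -0.39 for Fzd3. For Wnt11 the RPF log2 fold change ran from 0.12 to 0.44 with 1 embryo left out.

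Levels in wild-type embryos spanned more than 3 orders of magnitude. Per length, in CPM per kb of counted CDS, the RPF level was highest for Pfn1 (3353), followed by Cdc42 (979), Rhoa (730) and Rac1 (666), and among receptors for Ptk7 (131). Core polarity proteins were lower, led by Dvl2 (48.7) and Vangl2 (37.3), with Fzd3 at 22.9, Vangl1 at 18.9, Celsr3 at 0.747 and Prickle3 at 0.641. RNA per kb of transcript was 35.5 CPM for Fzd3 and 17.6 CPM for Vangl2, so Fzd3 had more RNA than Vangl2 and less RPF. The ratio of the per-length levels was 0.645 for Fzd3 and 2.12 for Vangl2, within a range over members from 0.202 (Ryk) to 7.05 (Rac1).

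**Figure D4:**
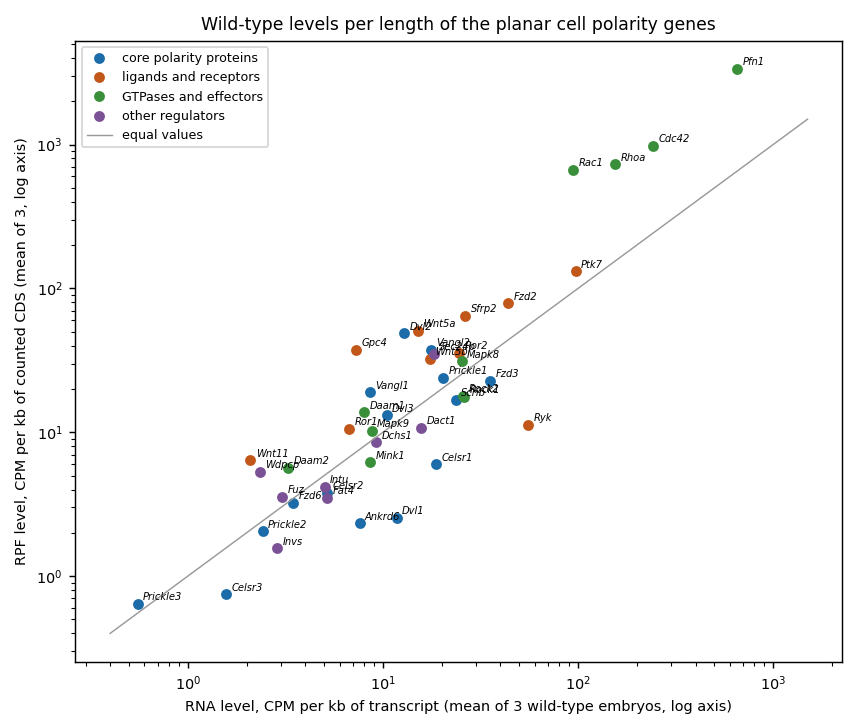
RPF level per kb of counted CDS against RNA level per kb of transcript for the 44 genes, means of 3 wild-type embryos on log axes, coloured by role; the grey line marks equal values. Pfn1, Cdc42, Rhoa and Rac1 form the upper right, while Ryk, Celsr1 and Dvl1 lie under the line, with more RNA per length than RPF.

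The 5'UTRs of the 44 genes were rich in G and C. The median GC content was 70.4% over the 40 members whose 5'UTR held 20 nt or more, against 64.8% over 12112 transcripts. Across those 40 genes the Spearman correlation of 5'UTR GC content with the TE log2 fold change was -0.43, and across all 12112 transcripts -0.22. These are descriptions across genes measured in the same 12 libraries, and genes are not independent replicates. Vangl2 (62.0%) and Fzd3 (53.3%) were not at the GC-rich end. There lay Ryk (84.9%), Dvl1 (83.5%), Rock2 (83.4%), Dvl3 (81.7%), Scrib (79.6%) and Mink1 (79.1%). Their TE log2 fold changes were -0.18, -0.05, -0.12, -0.44, -0.19 and -0.22 in that order. After a loess correction of every library for 5'UTR GC content both calls held, with RPF log2 fold changes of -0.37 for Vangl2 and -0.55 for Fzd3.

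**Figure D5:**
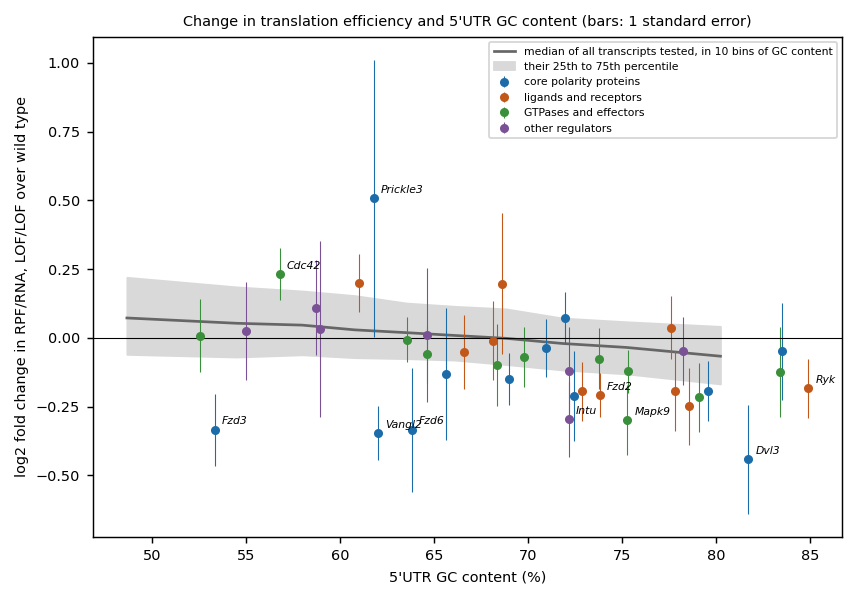
TE log2 fold change against 5'UTR GC content for the 40 members whose 5'UTR held 20 nt or more, with 1 standard error, over the median (line) and 25th to 75th percentile (band) of all transcripts in 10 bins of GC content. The line falls from 0.07 in the lowest to -0.07 in the highest bin, and Fzd3 and Vangl2 lie under the band at 53.3% and 62.0% GC.

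Beyond the 44 genes, 50 other genes of the pathway were listed, of which 48 were tested. They include further Frizzleds and glypicans, casein kinases, Smurf ligases, other small GTPases, myosins and cilia effectors. None was called at FDR < 0.1 in RPF, RNA or TE. In RPF 25 of 48 were below 0 with a median of -0.01, in RNA 14 of 48 with a median of 0.04, and in TE 28 of 48 with a median of -0.08. Over all transcripts tested the share below 0 was 49.1% in RPF, 50.6% in RNA and 48.0% in TE. At an unadjusted p below 0.05, 1 of the 48 was lower and 3 were higher in RPF, against 6.61% and 7.12% of all transcripts. In RNA 2 were lower and 8 higher, against 9.60% and 7.44%, and in TE 2 were lower and 2 higher, against 1.96% and 2.48%. In 7 of the 48 every Rpl10a LOF/LOF embryo lay above every wild-type embryo in RNA, as did 10.2% of all transcripts.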

How the data were processed

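Whole E8.5 mouse embryos, 3 wild-type and 3 Rpl10a LOF/LOF, were profiled by the authors for RPF and RNA. The deposited values are counts without normalization: the authors trimmed and demultiplexed reads (UMI-tools, cutadapt), discarded rRNA, tRNA and snRNA reads with Bowtie2, aligned the rest to GRCm38/mm10 transcripts, removed duplicates by molecular identifier, and counted A sites in the CDS without its ends (RPF) or reads over the whole transcript (RNA). Counting 1 transcript per gene means that other isoforms were not seen.

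As in the authors' methods, transcripts were kept if 3 or more RPF libraries exceeded 0.75 CPM. RPF and RNA libraries were TMM-normalized apart and tested with edgeR 4.0.16 (R 4.3.3) by the quasi-likelihood test with Benjamini-Hochberg adjustment over all 12576 transcripts. The authors used voom, limma, sva and locfdr, without a stated design. TE was the genotype by library interaction over 12 libraries. The standard errors given were derived from the edgeR test, as the size of the log2 fold change over the square root of its F statistic. Alternatives were DESeq2 1.42.0, limma-voom 3.58.1, sva 3.50.0 (2 surrogate variables, the number sva estimated), RLE size factors, no filter, a 2 CPM filter, a replicate block, a Y-linked covariate, a 5'UTR GC correction and each embryo left out. Fits were tested on simulated data with 200 changed transcripts. Permutation tests were exact and two-sided (scipy 1.17.1).

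Symbols, lengths and sequences came from GENCODE M21 of GRCm38, which held 21976 identifiers in the same version, 477 in another and missed 14. Of the 50 other pathway genes, Cplane2 was matched through an older symbol in RefSeq. Per-length levels used the CDS without the ends the authors left out. RPF and RNA deviations of the same embryo were correlated (r 0.181 to 0.396), which pairs them as 1 animal. The labels do not give litters or batches, and the RPF and RNA p-values measure the spread between these embryos. The main TE fit took the 12 libraries as separate. Its p-values therefore leave out the pairing of the RPF and RNA libraries of an embryo, which only the fit with the embryo block uses.

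Per-embryo values are given for members called at FDR < 0.1, or with an unadjusted p below 0.05 in RPF or TE, and for 19 genes named whatever their values. The members, lists and tests were chosen with earlier results of these data known.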

Additional observations from a re-analysis of the deposited data

How the results depend on the processing

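Both RPF calls, Vangl2 and Fzd3, were kept with DESeq2, limma-voom, RLE size factors, no filter, the 2 CPM filter, the replicate block and the 5'UTR GC correction. limma-voom with sva called 7 members in RPF (Vangl2, Fzd3, Dvl2, Sfrp2, Rac1, Wnt5a and Gpc4) and 10.4% of all transcripts, and the Y-linked covariate called 0 (0.262%). With 1 embryo left out, 0 to 9 members were called in RPF and 0 to 3 in RNA. The RNA calls were Dvl3 and Sec24b without wild-type replicate 2, Celsr3 without wild-type replicate 3, Fzd3 without Rpl10a LOF/LOF replicate 1, and Fat4, Ror1 and Scrib without Rpl10a LOF/LOF replicate 2, fits that called 3.69%, 4.00%, 3.54% and 4.76% of all transcripts. No setting called a member in TE. Members lower in RPF with an unadjusted p below 0.05 numbered 10 (6.61% of all transcripts), 5 with DESeq2 (4.38%), the Y-linked covariate (4.21%) or the GC correction (6.39%), and 4 (5.12%) to 14 (11.8%) with 1 embryo left out. In TE they numbered 6 (1.96%), 0 with the Y-linked covariate (1.25%), and 1 (0.825%) to 9 (5.89%) with 1 embryo left out. The cause of these changes was not tested. RPF and RNA libraries with the same replicate number in the 2 genotypes come from different embryos and share only a number (r of their deviations -0.099 to 0.0886), and blocking on it left 2 members called in RPF and 0 in RNA. The embryo as a replicate block in TE changed no call.

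The median RPF log2 fold change of the 44 members stayed between -0.12 and -0.05 and their median TE between -0.14 and -0.07 over all settings, and that of the core polarity proteins between -0.22 and -0.13 in RPF. The median of ligands and receptors in RPF, near 0, became 0.0575 with the Y-linked covariate, 0.0386 with the GC correction, and -0.0537 to 0.0434 with 1 embryo left out. Its TE median was -0.0198 with the Y-linked covariate and -0.1801 to -0.047 with 1 embryo left out. The median of GTPases and effectors ran from -0.1916 to -0.0619 in RPF and from -0.0816 to 0.0047 in RNA, and without Rpl10a LOF/LOF replicate 2 its RPF median was below that of the core polarity proteins. For the other regulators the RNA median became 0.029 with the Y-linked covariate and -0.0009 to 0.1569 with 1 embryo left out, and the TE median ran from -0.1158 to 0.0416.

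Of 1170 log2 fold changes of 26 named genes under 15 settings, 53 changed sign, all of genes not called at FDR < 0.1 in that measure. The Y-linked covariate gave RPF values of 0.0664 for Vangl1, 0.0107 for Dvl3, 0.0677 for Ror2, 0.0472 for Ptk7 and 0.0605 for Rock1. In RNA it gave -0.0854 for Celsr1, 0.0108 for Dvl2, 0.0374 for Rhoa, 0.0047 for Daam1 and 0.0404 for Rock1. In TE it gave 0.0858 for Vangl1, 0.037 for Ptk7, -0.2707 for Daam1 and 0.0198 for Rock1. The GC correction gave 0.0631 for Scrib in RPF, 0.0118 for Vangl2 in RNA and -0.0679 for Daam1 in TE. Wnt5a RNA was -0.0003 with limma-voom, Gpc4 TE was 0.021 with sva, and Daam1 TE was -0.0109 without the filter and -0.0081 with the replicate block.

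With 1 embryo left out, RPF values spanned 0 for Scrib (-0.0955 to 0.0488), Ror2 (-0.1119 to 0.0215) and Daam1 (-0.1971 to 0.0064). In RNA this held for Celsr1 (-0.0769 to 0.099), Wnt5a (-0.0324 to 0.0448), Vangl2 (-0.0697 to 0.0735), Fzd6 (-0.0665 to 0.141), Dvl2 (-0.0552 to 0.0503), Wnt11 (-0.04 to 0.2365), Mink1 (-0.1033 to 0.0284), Prickle1 (-0.0222 to 0.0505), Daam1 (-0.1402 to 0.0047) and Rock1 (-0.0526 to 0.0071). In TE it held for Rhoa (-0.0718 to 0.0579), Daam1 (-0.0993 to 0.15), Mapk8 (-0.103 to 0.0092), Gpc4 (-0.1388 to 0.1323), Rock1 (-0.1387 to 0.0042) and Vangl1 (-0.101 to 0.0188).

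Depth limits the sparse members most. Prickle3 rested on 6 to 20 RPF counts per library and its RPF standard error was 0.39, against 0.063 for Rac1, so differences of the size seen for Vangl2 were not detectable for it.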
